A study of Mus musculus with 16 samples.

Results

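The myeloid C-type lectin receptors are 8 mouse genes, Clec4a2, Clec4d, Clec4e, Clec4n, Clec5a, Clec7a, Clec10a and Clec12a, followed here across 16 two-colour microarrays of macrophages grown from murine stem cells. The list was set by gene name. A probe was taken for each gene whose accession on the array is paired with that symbol. Of the 8 genes, 7 had a named probe, each with 1 probe printed as 1 spot, and Clec7a was not analysed here. Of those 7 probes, 6 were well above background in the red channel on all 4 arrays of at least 1 group and entered the tests, out of 12759 genes tested in all. Clec4a2 did not reach that level in any group and is described by its signals, by bounds and by a fit without that filter.

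The arrays fall into 4 groups of 4, lettered a to d. LPS (lipopolysaccharide, a component of bacterial walls that activates Toll-like receptor 4) was given at 10 ng/mL for 8 h. Heme-albumin, the iron-containing heme group carried on albumin, was given at 50 µM or at 200 µM for 8 h. Control cells had no treatment and stand at 0 h, so that treatment and the 8 h of incubation cannot be told apart, nor can heme and albumin. The labels do not say which stem cells the macrophages came from. The series asks whether heme triggers inflammation. Each array set its sample (Cy5, red) against RNA of untreated cells (Cy3, green), and on the control arrays both colours are untreated cells. A value below is the log2 ratio of red over green on 1 array. A change is a difference of 2 group means with its standard error from limma. A gene was called when its adjusted p was under 0.05 and its change at least 2-fold.

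C-type lectin receptors are surface proteins of macrophages, neutrophils and dendritic cells that bind sugars, lipids and debris of microbes and damaged cells. Activating members carry, or pair with, a tyrosine-based signalling motif and engage the kinase SYK, from which the CARD9 module leads to NF-kB. Inhibitory members carry a motif of their own that recruits phosphatases, and others mainly take up their ligands.

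The labelled cell type was checked first: 8 of 8 macrophage markers with a named probe, of 9 listed, were well above background on all 4 control arrays (Adgre1, Csf1r, Lyz2, Itgam, Mertk, Fcgr1, Cd14 and Spi1). Markers of other cells were partly present. On the control arrays, 4 of 7 named neutrophil markers (S100a8, S100a9, Elane and Camp), 2 of 7 dendritic cell markers (Itgax and Siglech) and 2 of 3 monocyte markers (Ccr2 and Cx3cr1) were above background. The embryonic stem cell marker Nanog was above background on all 4 control arrays as well, whereas the stem cell markers Pou5f1, Sox2 and Zfp42 and the dendritic cell markers Xcr1 and Cd209a were at background on all 16 arrays. The summed red signal of the monocyte list, as log2 over the array's 75th percentile, lay between 3.54 and 4.09 after LPS, against 5.21 to 5.41 in control cells, and that of the neutrophil list between 2.41 and 3.31 after LPS, against 2.23 to 2.89 in control cells. For the dendritic cell list it lay between 3.6 and 4.34 after LPS, against 2.34 to 4.2 in control cells. At 0, 50 and 200 µM heme-albumin, the monocyte list spanned 5.21 to 5.41, 5.39 to 5.78 and 4.96 to 5.58, and the neutrophil list 2.23 to 2.89, 2.77 to 2.95 and 2.74 to 3.09. Their part in the results was not tested. In RNA from whole cultures, more cells of a type and more RNA per cell cannot be told apart. Between 49.9 and 59.4 percent of probes were above background per array, with 0 saturated spots, and the precision is limited by there being 4 arrays in a group.

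Clec4e, Clec4d and Clec4n neighbour each other on chromosome 6. The regions just upstream of Clec4e and Clec4d are shown because these adjacent genes had very different changes after LPS, and that of Clec12a because its LPS arrays stood above all others while its heme-albumin arrays overlapped those of control cells. Each is the 250 bases before the annotated start, 5′ to 3′ on the gene's strand, from RefSeq's annotation of GRCm38.p6. They lie at chr6:123289872-123290121 (minus strand), chr6:123261857-123262106 (plus strand) and chr6:129349994-129350243 (plus strand), in the order printed. Capitals mark matches to the motifs named after them.
Clec4e: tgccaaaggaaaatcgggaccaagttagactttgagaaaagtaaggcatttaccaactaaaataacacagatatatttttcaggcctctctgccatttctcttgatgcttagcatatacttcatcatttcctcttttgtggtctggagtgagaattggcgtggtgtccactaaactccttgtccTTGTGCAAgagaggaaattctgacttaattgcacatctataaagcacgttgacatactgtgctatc
Clec4d: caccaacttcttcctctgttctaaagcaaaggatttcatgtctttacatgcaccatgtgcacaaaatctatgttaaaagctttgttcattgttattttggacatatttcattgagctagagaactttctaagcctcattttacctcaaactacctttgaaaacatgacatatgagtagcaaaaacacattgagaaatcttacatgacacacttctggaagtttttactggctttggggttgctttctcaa
Clec12a: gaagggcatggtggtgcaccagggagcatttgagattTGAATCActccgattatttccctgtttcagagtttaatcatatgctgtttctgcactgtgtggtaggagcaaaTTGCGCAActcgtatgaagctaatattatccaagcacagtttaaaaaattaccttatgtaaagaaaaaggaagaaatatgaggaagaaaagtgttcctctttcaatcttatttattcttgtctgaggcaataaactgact

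These stretches were searched on both strands for 6 motifs of factors active in macrophages, and no match overlapped another. TTGCNNAA, a core of C/EBP sites, matched at -66 to -59 before the start of Clec4e and at -140 to -133 before Clec12a, and 9.56 percent of 32851 promoter windows of the same length hold it. TGANTCA, an AP-1 site, matched at -213 to -207 before Clec12a, and 6.75 percent of windows hold it. The NF-kB consensus (in 7.25 percent of windows), the PU.1 motif GAGGAAGT (2.44 percent), the antioxidant response element TGACNNNGC (10.2 percent) and a consensus of the interferon-stimulated response element (2.98 percent) had no match in the windows of Clec4e, Clec4d, Clec12a, Clec5a or Clec4a2. Clec4d, Clec5a and Clec4a2 had no match to any of the 6. A match is a string of letters and not a shown binding site.

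Clec4e rose after LPS more than any other of these genes, and also rose at the higher heme-albumin dose. Clec4e (Mincle) binds the mycobacterial cord factor and a protein released by dying cells, and signals through the Fc receptor gamma chain. After LPS its log2 ratios were 5.22, 5.11, 4.41 and 4.47 in replicates a to d. At 0, 50 and 200 µM heme-albumin they were 0.12, 0.03, 0.13 and 0.10, then 0.88, 0.66, 1.06 and 1.21, and then 1.85, 1.67, 2.46 and 2.13. The 4 groups do not overlap, and LPS stood above both doses. Such gaps between groups were common, here and for the genes below. Among all genes with a value on each array compared, 72.1 percent did not overlap between LPS and control cells. Against control cells it was 19 percent at 50 µM and 35.5 percent at 200 µM, and between the doses 21.3 percent. Against LPS it was 72.4 percent at 50 µM and 70.5 percent at 200 µM. The change after LPS was 4.70 ± 0.20 (26.1-fold, adjusted p = 1.4e-11). At 50 µM it was 0.86 ± 0.20 (1.81-fold, adjusted p = 0.025), which is short of 2-fold, and at 200 µM 1.93 ± 0.20 (3.81-fold, adjusted p = 5.7e-06).

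Clec4n changed in another order, highest with heme-albumin and split between arrays after LPS. Clec4n (Dectin-2) binds fungal mannans and uses the same gamma chain. After LPS its ratios were 1.61, 1.43, 0.17 and 0.08. They were -0.02, -0.08, 0.05 and 0.01 at 0 µM, 1.69, 1.51, 1.02 and 1.02 at 50 µM, and 2.17, 2.10, 1.67 and 1.98 at 200 µM heme-albumin. Replicates a and b after LPS stood among the 50 µM arrays, while c and d lay just above the control arrays. The change was 1.32 ± 0.30 at 50 µM (2.50-fold, adjusted p = 0.021) and 1.99 ± 0.30 at 200 µM (3.98-fold, adjusted p = 2e-04). The call at 50 µM was lost in 6 of 8 fits that left out 1 array, where the lowest change was 1.19 and the highest adjusted p 0.08. It was also lost on the second scan day alone, where the change was 0.99, just under 2-fold, against 1.65 on the first. After LPS the change was 0.83 ± 0.30 (adjusted p = 0.019), under 2-fold, and without LPS replicate c or d it was 1.05 or 1.08 and called.

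Clec4d (MCL) forms complexes with Mincle and binds the same cord factor. It was higher in all treated groups, and past 2-fold at 200 µM heme-albumin alone. Its ratios after LPS were 0.94, 0.81, 0.56 and 0.52. Across 0, 50 and 200 µM heme-albumin they were -0.08, -0.10, 0.04 and 0.02, then 0.78, 0.59, 0.50 and 0.52, and then 1.09, 0.95, 1.11 and 1.12. All treated arrays exceeded all control arrays, the 200 µM arrays exceeded all others, and the LPS and 50 µM arrays overlapped. The change after LPS was 0.74 ± 0.09 (1.67-fold, adjusted p = 2.8e-06). At 50 µM it was 0.63 ± 0.09 (1.55-fold, adjusted p = 0.00089), and at 200 µM 1.10 ± 0.09 (2.14-fold, adjusted p = 7e-07), close to the 2-fold limit.

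**Figure D1:**
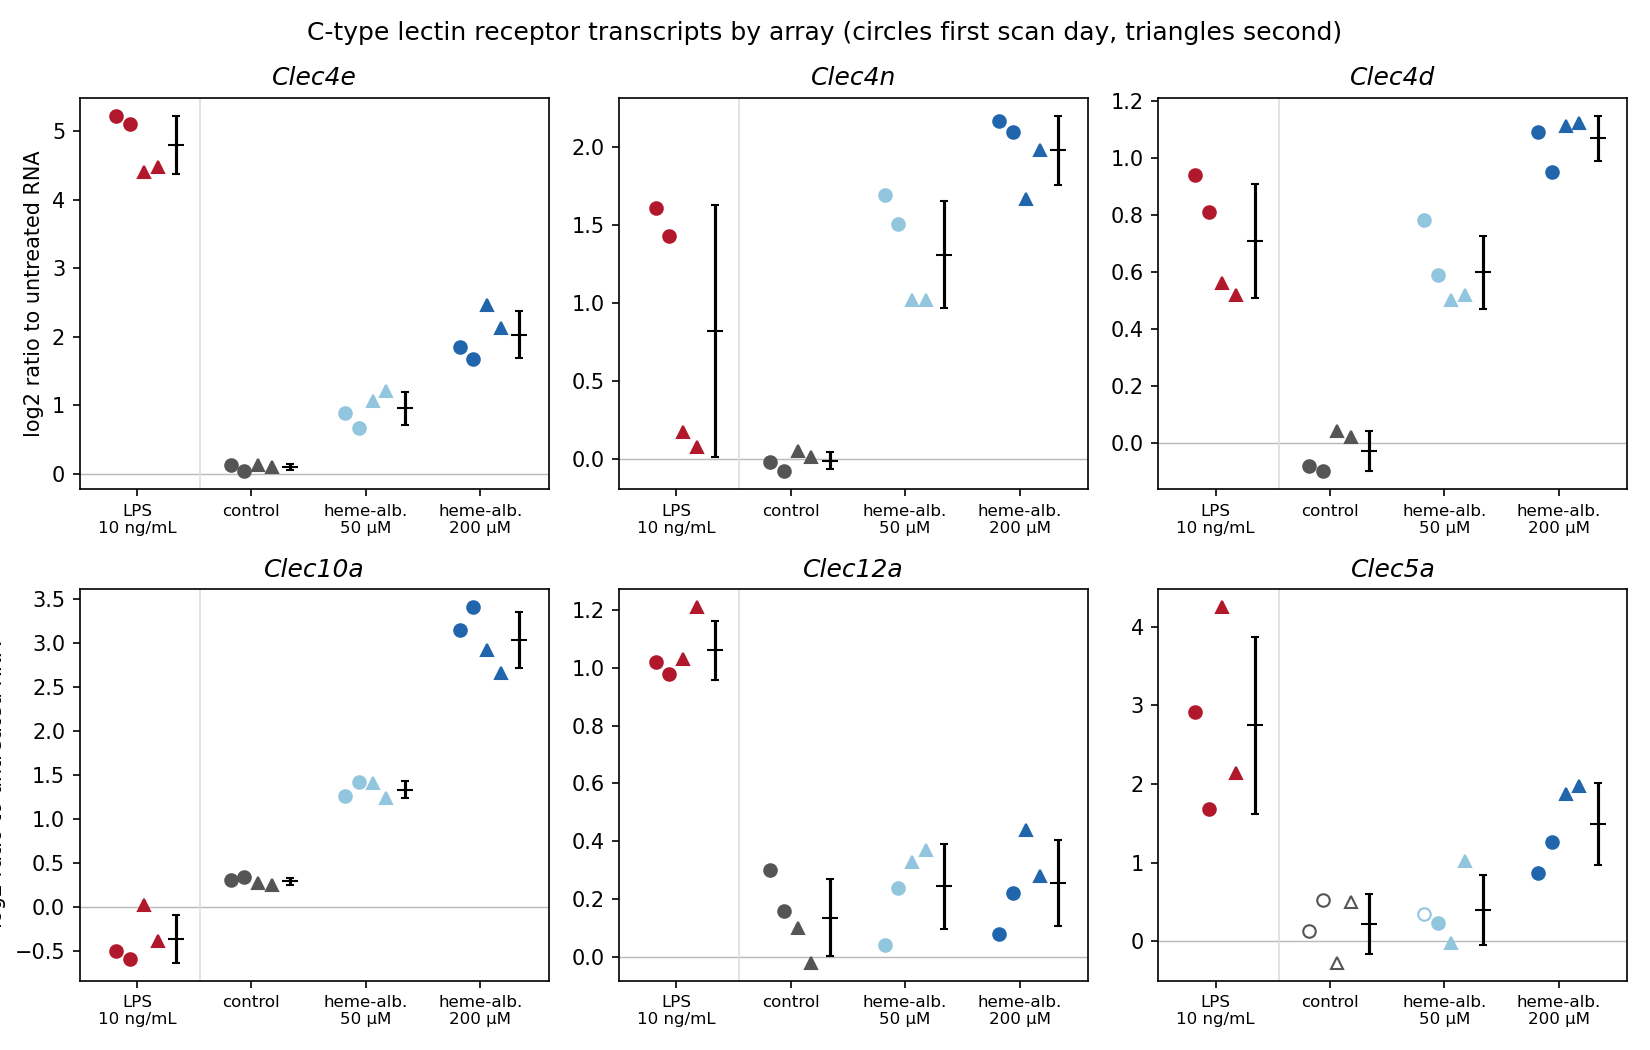
Log2 ratio of red over untreated green RNA (vertical axis) on each array of the 4 groups for the 6 tested genes, with circles for the first and triangles for the second scan day, open symbols not well above background, and mean ± SD (n = 4) at the right of each group. Clec10a is highest at 200 µM (2.66 to 3.41) and lowest after LPS (-0.59 to 0.02), Clec4e is highest after LPS (4.41 to 5.22), and the LPS arrays of Clec4n split by scan day. Each panel has its own vertical scale.

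Clec5a was dim, and above background mainly in treated cells. Clec5a (MDL-1) pairs with the adaptor DAP12 and is known for binding dengue virus. It was well above background on 4 of 4 arrays after LPS and 0 of 4 control arrays, and on 3 of 4 arrays at 50 µM and 4 of 4 at 200 µM heme-albumin. Its ratios after LPS were 2.92, 1.68, 4.25 and 2.14, a wide spread. They were 0.13, 0.53, -0.27 and 0.50 at 0 µM, 0.35, 0.23, -0.02 and 1.02 at 50 µM, and 0.87, 1.26, 1.88 and 1.97 at 200 µM. The LPS and 200 µM arrays stood above every control array, and those 2 groups overlapped each other. Since the control level is only a bound, Clec5a was at least 4.23-fold higher after LPS (adjusted p = 0.00011, called). No rise was shown at 50 µM, where the adjusted p was 0.94. At 200 µM the bound for Clec5a was 2.15-fold, with an adjusted p of 0.054 that missed the threshold. These sizes depend on the background correction. The LPS change of Clec5a was 0.84 under normexp and 0.87 without background subtraction, against 2.53 as fitted, and both are under 2-fold and below the bound. Its change at 200 µM was 0.11 under normexp (adjusted p = 0.78) and 0.31 without background subtraction (adjusted p = 0.069), against 1.27 as fitted. Each bound sets the mean of the brighter group against, per array, the higher of the dimmest signal well above background and the probe's own signal in the dimmer group, after dye normalisation. Such bounds are open to dye bias because no dyes were swapped.

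Clec10a showed the strongest rise at 200 µM heme-albumin among these genes, graded by dose, and was lower after LPS by less than 2-fold. At 50 µM the rise of Clec4n was larger (1.32 ± 0.30). With the red channel alone Clec4n also rose more at 200 µM (2.87, against 2.77 for Clec10a). Clec10a (MGL) takes up glycoproteins ending in galactose or N-acetylgalactosamine and is a textbook marker of alternatively activated mouse macrophages. Its ratios after LPS were -0.50, -0.59, 0.02 and -0.38. They were 0.31, 0.34, 0.28 and 0.25 at 0 µM, 1.26, 1.42, 1.41 and 1.24 at 50 µM, and 3.15, 3.41, 2.92 and 2.66 at 200 µM. No group overlaps another, and LPS is the lowest. The change was 1.04 ± 0.14 at 50 µM (2.05-fold, adjusted p = 0.00067) and 2.74 ± 0.14 at 200 µM (6.67-fold, adjusted p = 7.8e-09). After LPS it was -0.66 ± 0.14 (adjusted p = 0.00064), lower on all 4 slides. Whether the cells were alternatively activated was not tested. The lectin genes Mrc1 (0.03 ± 0.07, adjusted p = 0.84) and Mgl2 (0.30 ± 0.05, adjusted p = 0.00032) were not called at 200 µM. Both are named here after their values were seen.

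Clec12a was higher after LPS, just under 2-fold, and had no detectable change with heme-albumin. Clec12a (MICL) is an inhibitory receptor that recognises uric acid crystals. Its ratios after LPS were 1.02, 0.98, 1.03 and 1.21. At 0, 50 and 200 µM heme-albumin they were 0.30, 0.16, 0.10 and -0.02, then 0.04, 0.24, 0.33 and 0.37, and then 0.08, 0.22, 0.44 and 0.28. The LPS arrays stood above all others, while the 3 dose groups overlapped. The change after LPS was 0.93 ± 0.09 (1.90-fold, adjusted p = 2.7e-07). At 50 µM it was 0.11 ± 0.09 (adjusted p = 0.7, 95% interval -0.09 to 0.31) and at 200 µM 0.12 ± 0.09 (adjusted p = 0.4, 95% interval -0.08 to 0.32), so that both intervals end well below a 2-fold rise.

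Clec4a2 (DCIR), the other inhibitory receptor of the list, stayed near background. It was well above background on 0 of 4 arrays after LPS and 0 of 4 control arrays, on 1 of 4 arrays at 50 µM and on 3 of 4 at 200 µM heme-albumin. Its red signals were 8.18, 16.6, 6.61 and 7.65 after LPS, against 4.57, 5.67, 6.64 and 6.92 in control cells. At 50 µM they were 9.22, 8.89, 10.3 and 8.71, and at 200 µM 11.6, 16, 23.3 and 17.6. All heme-albumin arrays exceeded all control arrays in raw red signal, which is not scaled between arrays. The log2 ratios overlapped, at -1.36 to 0.47 after LPS, -0.36 to 1.11 at 0 µM, 0.44 to 1.84 at 50 µM and 0.07 to 2.27 at 200 µM. The bound for Clec4a2 at 200 µM against control cells was 1.44-fold, but it compares group means and carries no error. No rise was shown there, with an adjusted p of 0.37 in the limma fit of all 20659 named genes without a filter. In that fit its adjusted p was 0.58 at 50 µM and 0.38 after LPS. Against LPS the bound for Clec4a2 at 200 µM was 1.33-fold, again from group means and without error. Its adjusted p there was 0.027 in that fit, although the log2 ratios of these groups overlapped and no LPS array was above background. At 50 µM against LPS its adjusted p in that fit was 0.019, and both groups were mostly below background.

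Over the 6 tested genes, 2 were called higher after LPS (Clec4e and Clec5a) and 0 lower, where 30.7 percent of all genes were called, 14 percent higher and 16.7 percent lower. At 50 µM heme-albumin 2 were called higher (Clec4n and Clec10a), where 0.368 percent of all genes were called, 0.29 percent higher and 0.0784 percent lower. At 200 µM 4 were called higher (Clec10a, Clec4n, Clec4e and Clec4d), where 3.03 percent of all genes were called, 2.05 percent higher and 0.98 percent lower. The median change of the 6 was 0.88 after LPS, 0.74 at 50 µM and 1.60 at 200 µM, beside -0.09, -0.01 and -0.02 for all genes tested. The 3 comparisons share their control arrays, and a gene enters the test only if some group is bright enough, so these shares describe the 6 genes and not the 8. Clec5a entered through its LPS and 200 µM arrays. It was well above background on 0 of 4 control arrays, so a fall from control could not be shown for it. Among probes above background on all 16 arrays, 1 of 5 members was called after LPS, Clec4e. Under normexp, and without background subtraction, it was 1 of 6, again Clec4e.

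**Figure D2:**
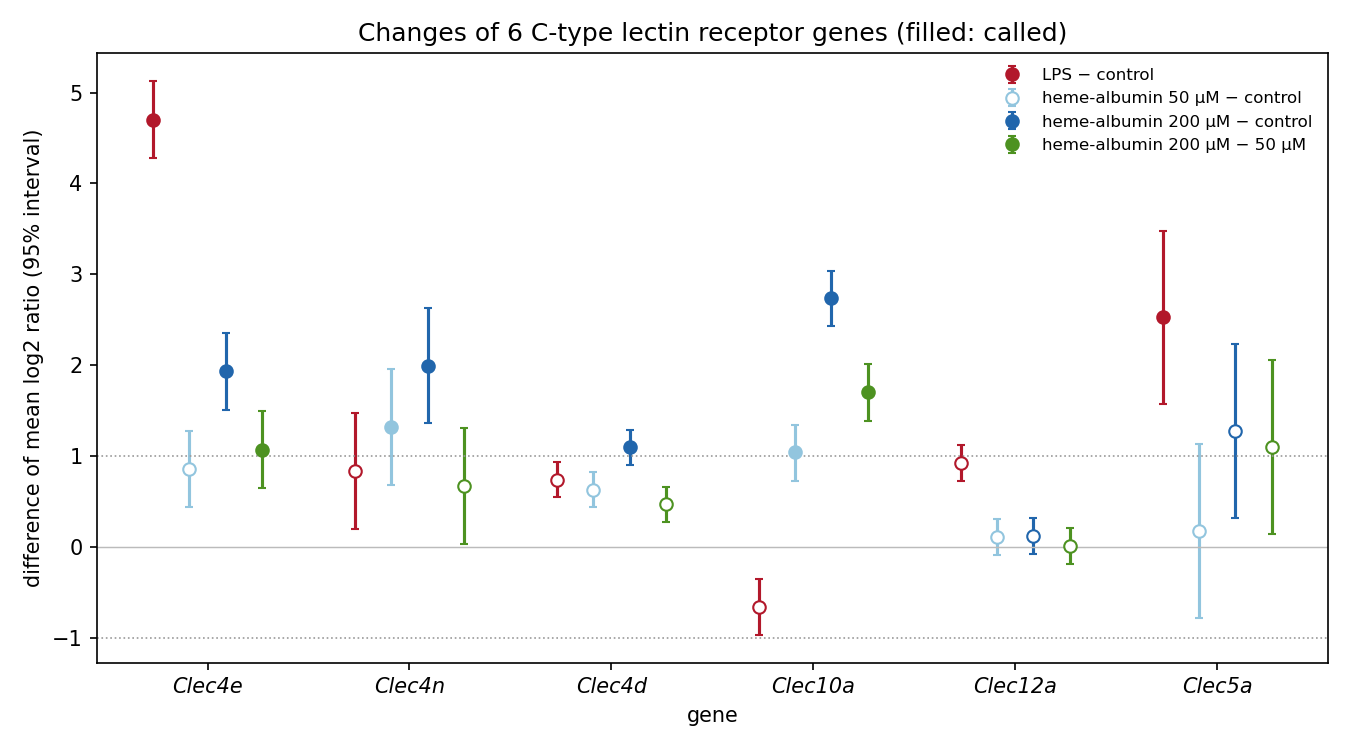
Difference of mean log2 ratio with its 95% interval (vertical axis) for the 6 tested genes in 4 comparisons, filled where the gene was called and dotted lines at a 2-fold change. The LPS change is the largest for Clec4e, Clec5a and Clec12a, and the 200 µM heme-albumin change is the largest for Clec10a, Clec4n and Clec4d. The control level of Clec5a is only a bound, and its changes against control are shown as fitted.

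The doses were compared directly. Clec10a was higher at 200 µM than at 50 µM by 1.70 ± 0.14 (3.25-fold, adjusted p = 4.5e-06) and Clec4e by 1.07 ± 0.20 (2.11-fold, adjusted p = 0.0034). These are the 2 genes of the 6 called between the doses, where 0.831 percent of all genes were called, 0.635 percent higher and 0.196 percent lower. The call of Clec4e was lost under normexp (0.98), on the first scan day alone (0.99), without 50 µM replicate b (0.98) and without 200 µM replicate c (0.93). Clec4d was higher by 0.47 ± 0.09 (adjusted p = 0.005), short of 2-fold. Clec4n differed by 0.67 ± 0.30 (adjusted p = 0.22, 95% interval 0.04 to 1.31) although it was higher at 200 µM on each of the 4 slides. That standard error also takes in the split LPS arrays, which are not part of this comparison. Within the first and second scan day, with 2 arrays of each group per day, limma gave 0.54 (adjusted p = 0.024) and 0.81 (adjusted p = 0.0084). Both are under 2-fold. Clec5a differed by 1.10 ± 0.45 (adjusted p = 0.18), also in 1 direction on 4 of 4 slides. Clec12a differed by 0.01 ± 0.09 (adjusted p = 0.98, 95% interval -0.19 to 0.21).

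Heme-albumin was also set directly against LPS. At 200 µM, Clec10a was higher than after LPS by 3.40 ± 0.14 (10.6-fold, adjusted p = 1.6e-11) and Clec4n by 1.16 ± 0.30 (2.23-fold, adjusted p = 0.0024). Clec4e was lower by 2.77 on the log2 scale (-2.77 ± 0.20, adjusted p = 6.2e-09), as was Clec5a (-1.25 ± 0.45, adjusted p = 0.019). These 4 calls stand where 30.3 percent of all genes were called. The call of Clec4n was lost under normexp (0.99), on the first scan day alone (0.62) and without LPS replicate c (0.94) or d (0.91). That of Clec5a was lost under normexp (-0.73), without background subtraction (-0.56), on the second day alone (adjusted p = 0.15), without 200 µM replicate a (adjusted p = 0.06) and without LPS replicate c (-0.75). Clec12a differed by -0.81 ± 0.09 (adjusted p = 1.3e-06) and Clec4d by 0.36 ± 0.09 (adjusted p = 0.0022), both under 2-fold. At 50 µM against LPS, 3 of the 6 were called, where 30.6 percent of all genes were. Clec10a was higher by 1.70 ± 0.14, and the changes of Clec4e and Clec5a were -3.85 ± 0.20 and -2.35 ± 0.45, with adjusted p of 4.2e-08, 1.4e-10 and 0.00021. The Clec5a value was -0.86 both under normexp and without background subtraction, under 2-fold. Clec4d did not reach the threshold there (-0.11 ± 0.09, adjusted p = 0.28, 95% interval -0.30 to 0.09).

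Replicates a and b were scanned on a first day and c and d on a second, each day holding 2 arrays of every group. The change of Clec4n after LPS was 1.57 (adjusted p = 8.8e-06) on the first day and 0.10 (adjusted p = 0.4) on the second. The LPS changes on the first and second day were 0.97 and 0.51 for Clec4d and 5.09 and 4.32 for Clec4e. The test of the difference between days, second minus first, gave -1.47 ± 0.14 for Clec4n (adjusted p = 5.2e-05), -0.46 ± 0.10 for Clec4d (adjusted p = 0.0057) and -0.77 ± 0.16 for Clec4e (adjusted p = 0.0047). In that test 33.6 percent of all genes had an adjusted p under 0.05, so a difference between days was widespread after LPS. Each day holds its own replicates and slides, so scan day cannot be told apart from replicate or slide. With heme-albumin, 0 genes passed the same limma test at 50 µM and 1 at 200 µM, which was none of the 6. At an unadjusted p under 0.05 it held for Clec4d, Clec4n and Clec12a at 50 µM, and for Clec4e, Clec4n and Clec12a at 200 µM. Differences from LPS also varied between days. At 200 µM against LPS, the second day minus the first was 1.26 for Clec4e (adjusted p = 0.00027), 1.08 for Clec4n (adjusted p = 0.00027), -0.85 for Clec10a (adjusted p = 0.0069) and 0.43 for Clec4d (adjusted p = 0.0075), where 34.4 percent of all genes passed. At 50 µM against LPS it was 1.10 for Clec4e (adjusted p = 0.00064) and 0.81 for Clec4n (adjusted p = 0.0016), where 32 percent of all genes passed. These tests share the LPS arrays with the one above. Clec10a was called higher within both days at 50 µM (1.01 and 1.06) and at 200 µM (2.95 and 2.52).

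**Figure D3:**
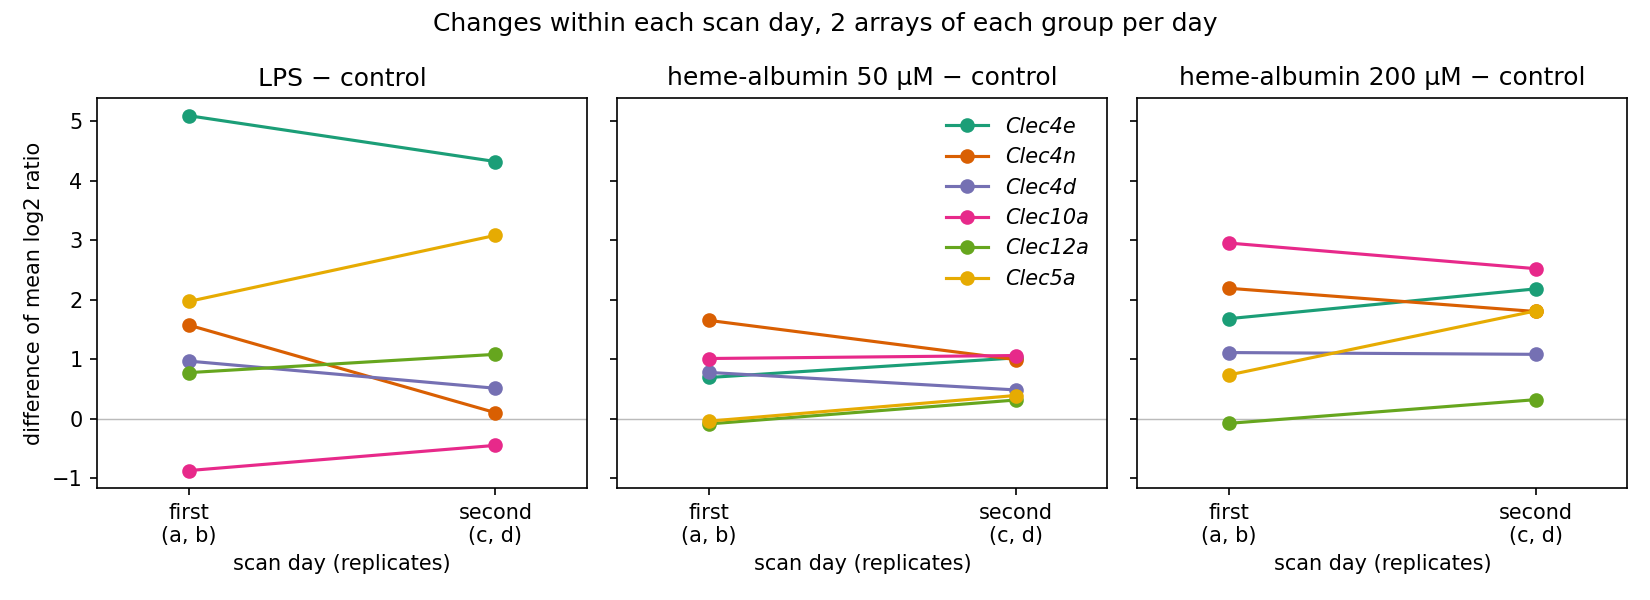
Difference of mean log2 ratio (vertical axis) within the first scan day (replicates a and b) and the second (c and d) for the 6 tested genes, in panels for LPS and both heme-albumin doses against control. After LPS the line of Clec4n falls by 1.47 between days, and at 200 µM heme-albumin the 4 called genes stay above 1 on both days.

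Clec4 genes next to these members were read in their order on chromosome 6, a choice made after seeing the values. Between Clec4a1 and Clec4e, RefSeq lists 11 genes in a row, 9 of them coding for protein, and 7 were tested. At 200 µM heme-albumin 6 of the 7 were called higher, with a median change of 1.37, and the exception was Clec4a3 (0.53). Over all genes 2.05 percent were called higher there, but 3 of the 6 are members already counted, and nothing is read from the share of a stretch chosen for its values. Beside the 3 members these were Clec4b1 (DCAR, an activating receptor), Clec4a4 (DCIR2) and Clec4a1 (DCIR4). Clec4b1 had ratios of 0.15, 0.05, 0.24 and 0.10 at 0 µM, 1.16, 1.19, 1.23 and 1.07 at 50 µM, and 2.01, 2.05, 1.93 and 1.73 at 200 µM, without overlap. Over all genes, 19 percent did not overlap between 0 and 50 µM and 21.3 percent between 50 and 200 µM. The changes of Clec4b1 were 1.03 ± 0.21 at 50 µM (adjusted p = 0.011) and 1.79 ± 0.21 at 200 µM (adjusted p = 1.8e-05), and after LPS 0.24 ± 0.21 (adjusted p = 0.29), from LPS arrays of 0.70, 1.02, 0.15 and -0.35. Clec4a4 changed by 1.37 ± 0.14 at 200 µM (adjusted p = 3.9e-06) and Clec4a1 by 1.18 ± 0.05 (adjusted p = 1.8e-09). After LPS 2 of the 7 were called higher, Clec4e and Clec4a1 (2.41 ± 0.05, adjusted p = 1.6e-14), beside 14 percent of all genes. These genes are close relatives in sequence, and cross-hybridisation between their probes was not tested.

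**Figure D4:**
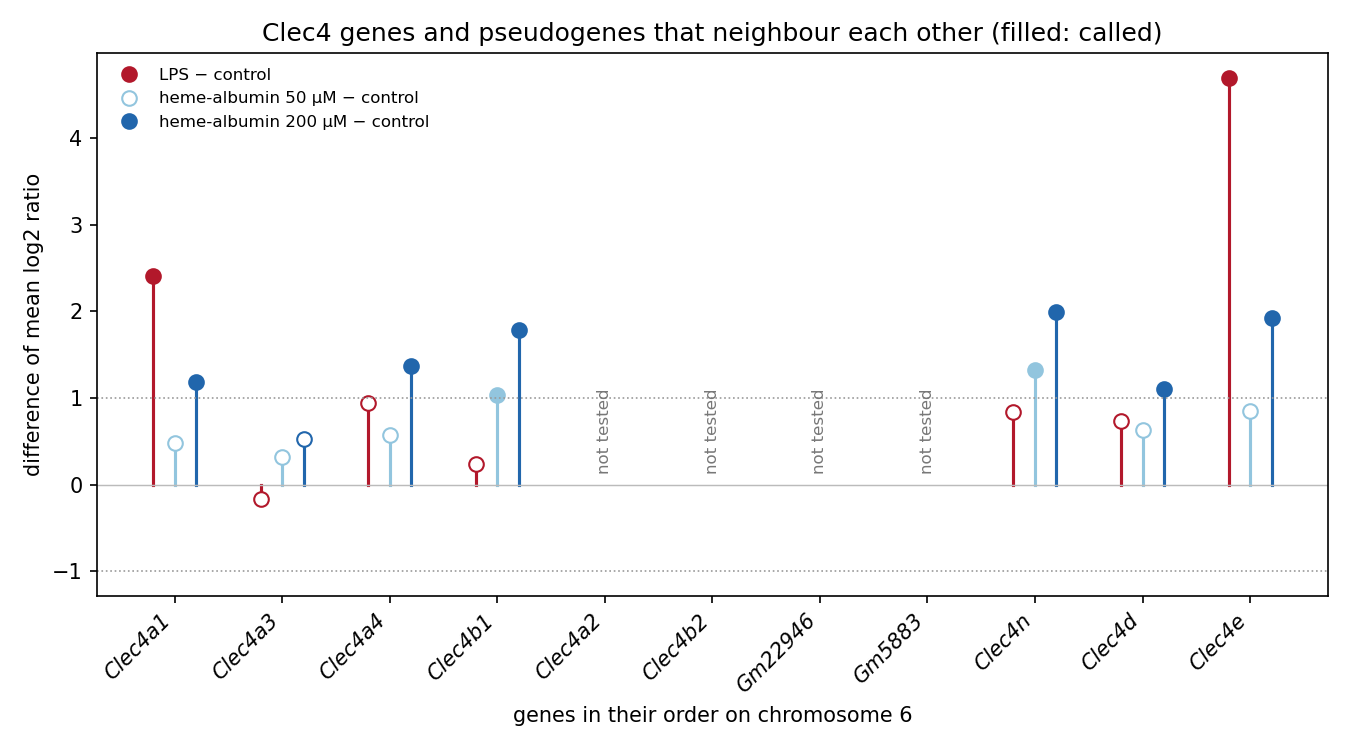
Difference of mean log2 ratio against control (vertical axis) for the 11 neighbouring genes from Clec4a1 to Clec4e in their order on chromosome 6 (evenly spaced, not to scale of distance), filled where called and dotted lines at a 2-fold change. The 200 µM heme-albumin marks of 6 of the 7 tested genes lie above 1, and the LPS marks above 2 are those of Clec4a1 and Clec4e.

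Of 26 other C-type lectin genes listed, these neighbours included, 16 were tested. After LPS 6 were called higher and 3 lower, at 50 µM heme-albumin 1 higher, Clec4b1, and 0 lower, and at 200 µM 5 higher and 0 lower. Over all genes the shares called were 14 percent higher and 16.7 percent lower after LPS, 0.29 percent higher at 50 µM and 2.05 percent higher at 200 µM. The largest LPS changes were those of Cd69, an early activation antigen (7.68 ± 0.21, adjusted p = 1.6e-13), of Klra2, an inhibitory receptor (3.96 ± 0.26, adjusted p = 2.1e-09), and of Olr1, the receptor for oxidised LDL. Olr1 was not above background on any control array and was at least 19.8-fold higher after LPS (adjusted p = 6.7e-07). Clec1a, a receptor for fungal melanin, was not above background on any LPS array and was at least 2.16-fold lower there (adjusted p = 3.5e-05). Klra2 also rose at 200 µM (1.39 ± 0.26, adjusted p = 0.0013) and between the doses (1.05 ± 0.26, adjusted p = 0.022). Cd302, named here after its values were seen, completes the 5 at 200 µM (1.27 ± 0.10, adjusted p = 4.6e-07).

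Most calls among the genes through which the receptors signal were made after LPS, as they were among all genes. Over all genes 30.7 percent were called after LPS (14 percent higher and 16.7 percent lower), 0.368 percent at 50 µM and 3.03 percent at 200 µM heme-albumin. Among 3 adaptors, Fcer1g, which encodes the gamma chain used by Clec4e, Clec4d and Clec4n, was called higher after LPS (1.09 ± 0.06, adjusted p = 2.1e-10). Its change was -0.04 ± 0.06 at 50 µM (adjusted p = 0.9) and -0.10 ± 0.06 at 200 µM heme-albumin (adjusted p = 0.26). Tyrobp, which encodes DAP12, had a change of -0.38 ± 0.07 after LPS (adjusted p = 0.00016) and of 0.03 ± 0.07 at 200 µM (adjusted p = 0.84). Of 12 kinases and partners at the receptor, 6 were called higher after LPS. They include the Src-family kinases Src (2.49 ± 0.46), Lyn (2.09 ± 0.07) and Fgr (1.42 ± 0.10), with adjusted p between 1e-12 and 0.00015 (Src was above background on 1 of 4 control arrays), and, named after their values were seen, Syk (1.48) and Vav1 (1.08). At 200 µM heme-albumin Fgr was the 1 gene of the 12 called (1.62 ± 0.10, adjusted p = 3e-08), and its change at 50 µM was 0.87 ± 0.10 (adjusted p = 0.00011). Mean ratios of Fgr were 0.00 ± 0.02 at 0 µM, 0.87 ± 0.10 at 50 µM and 1.62 ± 0.12 at 200 µM (SD, n = 4 each).

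Of 7 genes of the CARD9 module, Malt1, its protease, rose after LPS (3.50 ± 0.08, adjusted p = 2.9e-14) and Card9 fell (-1.01 ± 0.22, adjusted p = 0.00059). Of 7 calcineurin and NFAT genes, Rcan1, a feedback inhibitor of calcineurin, rose after LPS (1.34 ± 0.23, adjusted p = 6.4e-05). Nfatc2 (-1.74 ± 0.10, adjusted p = 3.2e-10) and Nfatc1 (-1.33 ± 0.15, adjusted p = 1.1e-06) fell. Of 3 phosphatases that inhibitory receptors recruit, Inpp5d fell after LPS (-1.05 ± 0.11, adjusted p = 3.8e-07). With heme-albumin 0 genes of these 3 lists were called at either dose by limma, where 0.368 percent of all genes were called at 50 µM and 3.03 percent at 200 µM. With shares this low, nothing particular to these lists is read from the 0. At an unadjusted p under 0.05 the CARD9, NFAT and phosphatase lists had 0, 1 and 0 genes at 50 µM and 2, 2 and 1 at 200 µM, among them Nfatc2 (-0.46 ± 0.10, adjusted p = 0.0029) and Ptpn6, the phosphatase SHP-1 (0.20 ± 0.06, adjusted p = 0.023), at 200 µM.

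**Figure D5:**
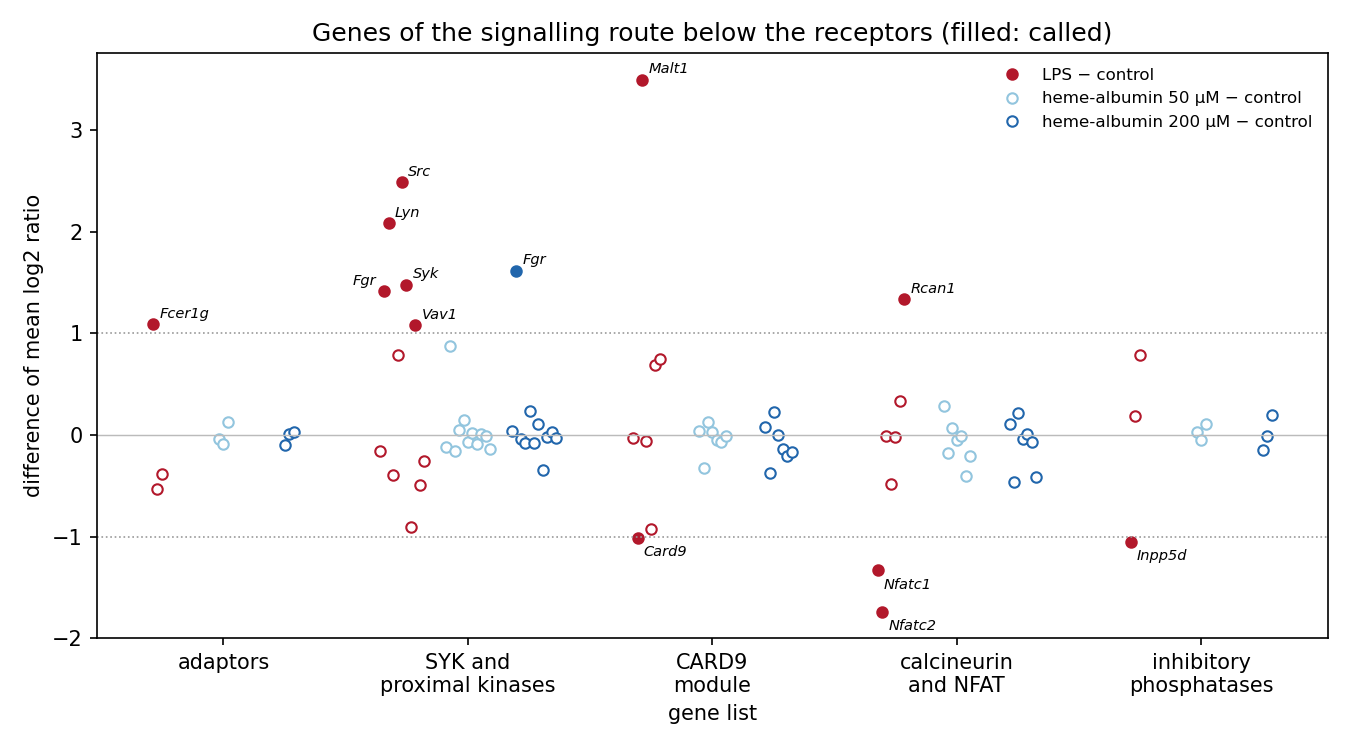
Difference of mean log2 ratio against control (vertical axis) for tested genes of 5 lists, less 1 kinase not reported here (horizontal axis), after LPS and at both heme-albumin doses, filled and named where called, with dotted lines at a 2-fold change. LPS marks reach 3.50 (Malt1) and -1.74 (Nfatc2), while with heme-albumin Fgr at 200 µM (1.62) is the one filled mark.

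The genes whose ratios followed each member most closely over the 16 arrays differed between members. For Clec4e these were Gpr84, a receptor for medium-chain fatty acids (Pearson r = 0.996), and P2ry2, a nucleotide receptor (r = 0.995). Clec4n was most like Zic1 (r = 0.978) and Slc11a1, a metal transporter of phagosomes (r = 0.959), and Clec4d like Dnmt3l (r = 0.978) and Rit1 (r = 0.976). Clec10a was most like Cavin3 and Gm14548 (r = 0.976 each), Clec12a like Mapk6 (r = 0.977) and Cd200 (r = 0.976), and Clec5a like Ppic (r = 0.922) and Septin7 (r = 0.91). Among the members, Clec4e and Clec12a had r = 0.914, Clec4d and Clec4n 0.901, and Clec10a and Clec12a -0.536. Likeness was sought among 12354 genes, and the 16 arrays fall into 4 groups, so these values mainly describe shared differences between groups.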

How the data were processed

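Per the file headers, the deposited ratios are on a log10 scale, red divided by green for each spot, background-subtracted and dye-normalised (linear, then lowess) by Agilent Feature Extraction 10.7.3.1, and the deposited signals are intensity values of each colour. Per the labels, the authors used these ratios without further normalisation and a 2-fold filter. Log10 ratios were turned to log2. Spots of a probe were averaged, controls and outlier spots (188 to 690 per array) left out, and 27234 of 39429 probes named by accession through RefSeq's gene list of GRCm38.p6, whose build differs from the array's, so that gene order alone was read from it. The brightest passing probe stood for a gene (12759 genes). Limma 3.58.1 in R 4.3.3 (data.table version 1.17.8, matplotlib 3.10.9) fitted 1 mean per group over 16 arrays with 14.1 median degrees of freedom. Benjamini-Hochberg adjustment ran over all genes in each of 6 comparisons.

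The design text calls the 4 arrays of a group independent biological replicates. Every slide holds 1 array per group, with 1 replicate letter, and position on the slide cannot be told apart from group. Deviations of same-letter arrays correlated from 0.166 to 0.502 in the 3 comparisons among control and both heme-albumin doses, from 0.161 to 0.262 between 50 µM and LPS, from 0.0962 to 0.114 between LPS and control and from 0.1 to 0.232 between 200 µM and LPS. The letters were thus read as related where all 4 values exceeded 0.1. The reported changes, standard errors and p-values nevertheless come from a fit without a pairing term. A fit with the replicate as a block was run as an alternative only.

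The members, lists and tests were chosen with earlier results of these data known. Named are all members, up to 4 genes of each other list (called first, by size of change) and the 2 genes most like each member by r, and other names are marked in the text. Some genes that this rule names are not reported here. The normexp correction was run on median spot signals, not on the mean signals first intended. The scan day difference was added after seeing the data.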

Additional observations from a re-analysis of the deposited data

Results flagged for a closer look

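The change after LPS differed between scan days for 3 receptor genes, by the test of the difference itself (limma, 2 arrays of each group per day). For Clec4n the second day minus the first was -1.47 (adjusted p = 5.2e-05), with changes of 1.57 on the first day and 0.10 on the second. For Clec4e it was -0.77, or -0.768 before rounding (adjusted p = 0.0047), and for Clec4d -0.46, or -0.456 before rounding (adjusted p = 0.0057). The same test passed for 33.6 percent of all genes, and scan day cannot be told apart from replicate or slide. The difference from LPS also varied between days, second minus first. At 200 µM heme-albumin against LPS it was 1.26 for Clec4e, 1.08 for Clec4n, -0.85 for Clec10a (-0.853 before rounding) and 0.43 for Clec4d (0.432 before rounding), and at 50 µM against LPS 1.10 for Clec4e and 0.81 for Clec4n (0.812 before rounding). Within the 28 sets of 4 arrays, 1 for each of 7 genes in 4 groups, no array stood apart by Dixon's test at its 95% limit.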

How the results depend on the processing

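Under 12 alternatives and 16 fits that each left out 1 array, no change of a receptor gene that was called turned its direction. Normexp with an offset of 50 called 19 genes at 50 µM, 151 at 200 µM and 31 between the doses, against 47, 386 and 106 as reported, and without background subtraction the counts were 29, 229 and 70. Members called under normexp were 1 after LPS (Clec4e, as Clec5a was 0.84), 1 at 50 µM (Clec4n, as Clec10a was 0.97), 1 between the doses (Clec10a, as Clec4e was 0.98) and 2 at 200 µM against LPS. Without background subtraction 1 member was called after LPS (Clec4e, as Clec5a was 0.87). The change of Clec5a at 200 µM was 0.11 under normexp (adjusted p = 0.78) and 0.31 without background subtraction (adjusted p = 0.069), against 1.27 as reported. With no filter on dim probes 1 of 7 was called at 50 µM (Clec10a, as Clec4n had an adjusted p of 0.053), with probes above background on all 16 arrays 1 of 5 after LPS, as Clec5a is then not tested, and on the first scan day alone 1 between the doses (Clec10a, as Clec4e was 0.99). Leaving out 1 array gave 1 to 2 members at 50 µM, 1 to 2 between the doses (1 without 50 µM replicate b or 200 µM replicate c) and 2 to 4 at 200 µM against LPS (2 without LPS replicate c, where Clec4n was 0.94 and Clec5a -0.75). With the red channel alone Clec4d was under 2-fold at 200 µM (0.77) and Clec5a was called there (1.63, adjusted p = 0.0019). In that setting Clec4n was called after LPS (1.17, adjusted p = 0.0043), and its change at 200 µM was 2.87, against 1.99 as reported. Clec4d at 200 µM then differed from LPS by 0.07 (adjusted p = 0.56), against 0.36 as reported. Clec5a was also called at 200 µM with scan day as a term (adjusted p = 0.042) and without 200 µM replicate a (adjusted p = 0.041). The causes were not tested. A replicate block changed no count of members called (2 after LPS, 2 at 50 µM, 4 at 200 µM, 2 between the doses, 3 at 50 µM and 4 at 200 µM against LPS), with 3922, 54, 393, 121, 3918 and 3874 genes called in the same order. Signal over background limits Clec5a and Clec4a2.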

Other observations

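Macrophage markers, which identify the cells, changed too. Over all genes 14 percent were called higher and 16.7 percent lower after LPS. With heme-albumin 0.368 percent were called either way at 50 µM and 3.03 percent at 200 µM, where 0.98 percent were lower. After LPS 4 of 8 were called higher, Fcgr1 (3.14), Cd14 (2.66), Spi1 (1.49) and Adgre1 (1.17), and 0 lower. The list was nevertheless split in direction. Mertk (-0.97), Lyz2 (-0.75) and Csf1r (-0.63) were lower after LPS and Itgam (0.51) higher. These changes were under 2-fold, each with an adjusted p under 0.05 by limma, and the genes are named after their values were seen. At 50 µM heme-albumin 0 were called by limma, with 3 at an unadjusted p under 0.05. At 200 µM 2 of 8 were called lower, Fcgr1 (-1.58) and, named after its value was seen, Mertk (-1.04). Of 4 tested dendritic cell markers, Ccr7, a chemokine receptor, was called higher after LPS (6.44, above background on 1 of 4 control arrays), and of 4 tested neutrophil markers S100a8 (1.56) and Camp (2.19) were. Of the monocyte markers, Ccr2 (-1.65) and Cx3cr1 (-1.99) were called lower after LPS. With heme-albumin 0 markers of these 3 lists were called at either dose by limma, and the dendritic cell, neutrophil and monocyte lists had 0, 2 and 1 markers at an unadjusted p under 0.05 at 50 µM and 0, 2 and 2 at 200 µM. Nanog, the 1 tested marker of embryonic stem cells, changed by 0.18 after LPS, -0.08 at 50 µM and -0.02 at 200 µM heme-albumin, none of which was called.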
